A study of Mus musculus with 3143 samples.

Results

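NF-kB genes were followed across the cells of the mouse glomerulus in IgA nephropathy. The set held 10 of the 46517 gene names in the count table, taken by symbol: the subunits Rela, Rel, Relb, Nfkb1 and Nfkb2, and the feedback and target genes Nfkbia, Tnfaip3, Birc3, Traf1 and Tnfaip2. All 10 names were found, each as 1 row. NF-kB factors are dimers of Rel-family proteins that IkB proteins hold in the cytoplasm. In the canonical arm, receptors such as those for TNF, IL-1 and microbial products switch on the IKK complex, IkB alpha is degraded, and RelA or c-Rel dimers enter the nucleus. There they raise the genes of their own inhibitors, which closes a feedback loop. In the other arm, p100, the product of Nfkb2, is processed and RelB dimers are released. In kidney the pathway is best known for driving adhesion molecules and chemokines in inflamed endothelium and tubule.

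The study set IgAN against Control in C57BL/6 mice described as adult. Kidneys gave a glomerular fraction that was dissociated with enzymes, and cells that took up the CellTracker dye were sorted to 384-well plates and read by Smart-seq2, a full-length method without molecular identifiers. IgAN stands for IgA nephropathy, in which IgA collects in the mesangium, and the labels do not say how it was produced. The 1798 IgAN cells filled plates 313, 315, 316, 318, 322 and 325, and the 1345 Control cells plates 314, 317, 321 and 326. Since the labels name no animal, IgAN and Control are 1 sample each, and differences between them carry no test or p-value. Plates were never shared, so a plate's effect and that of its group cannot be told apart. Values by plate stand in for replicates as a description of spread. Depth ran from 50365 to 1135415 reads per cell, with a median of 231222 in IgAN and 241543 in Control.

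Cells were grouped by clusters built without the 10 genes and named from markers, and a class name ends in "like" because it rests on RNA alone. Endothelial-like cells were the largest class, with 1007 IgAN and 615 Control cells. Mesangial-like cells numbered 117 in IgAN and 51 in Control, and podocyte-like cells 39 in IgAN and 146 in Control. Many cells also held RNA of another class: at least 3 markers, making up 50% or more of a list of another class, reached 10 CPM in 162 of the 168 mesangial-like cells, 202 of the 223 proximal tubule-like cells and 342 of the 1622 endothelial-like cells. No doublet caller was run. Levels are given as CPM, the gene's share of all reads summed over the cells of a class on the usual counts-per-million scale.

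The promoter sequences of the set are shown first because 4 of the genes carry matches to the NF-kB (kappaB) consensus close to their start. RefSeq windows of 250 bases before and 50 bases after the start, on GRCm38.p6, were available for 8 of the 10 genes, as 11 windows. The consensus was GGGRNWYYCC, where R is A or G, W is A or T, Y is C or T and N is any base. A match on either strand was found in 6 of these windows, from Nfkbia, Tnfaip3, Rel and Nfkb2. Windows of Nfkb2 that overlap share a site, which is counted in each of them. Among all 32851 windows of 27025 genes, 4.51% held a match. A match is a description of letters and does not show binding. Capitals below mark the matches, and each window runs 5′ to 3′ along the gene's own strand.

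Nfkbia (IkB alpha), chr12:55492598-55492897, minus strand: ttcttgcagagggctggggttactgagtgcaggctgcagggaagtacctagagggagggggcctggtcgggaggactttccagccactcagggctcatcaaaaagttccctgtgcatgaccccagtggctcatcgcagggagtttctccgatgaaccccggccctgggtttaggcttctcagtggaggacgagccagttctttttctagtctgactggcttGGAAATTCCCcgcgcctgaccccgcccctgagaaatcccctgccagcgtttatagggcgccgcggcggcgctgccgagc
Tnfaip3 (A20), chr10:19015361-19015660, minus strand: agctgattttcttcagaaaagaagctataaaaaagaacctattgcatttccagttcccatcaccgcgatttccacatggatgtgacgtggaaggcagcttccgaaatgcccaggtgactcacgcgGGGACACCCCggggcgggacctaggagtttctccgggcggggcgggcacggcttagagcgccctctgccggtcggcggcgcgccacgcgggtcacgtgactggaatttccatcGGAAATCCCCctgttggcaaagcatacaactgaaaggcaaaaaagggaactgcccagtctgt
Rel (c-Rel), chr11:23770920-23771219, minus strand: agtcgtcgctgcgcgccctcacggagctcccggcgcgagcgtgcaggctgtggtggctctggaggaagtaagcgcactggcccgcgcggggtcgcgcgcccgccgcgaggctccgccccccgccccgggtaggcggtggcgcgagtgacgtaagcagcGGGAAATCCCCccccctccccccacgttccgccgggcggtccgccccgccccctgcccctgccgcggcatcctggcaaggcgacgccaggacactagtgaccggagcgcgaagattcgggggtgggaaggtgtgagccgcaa
Nfkb2 (p100 and p52), chr19:46304487-46304786, plus strand: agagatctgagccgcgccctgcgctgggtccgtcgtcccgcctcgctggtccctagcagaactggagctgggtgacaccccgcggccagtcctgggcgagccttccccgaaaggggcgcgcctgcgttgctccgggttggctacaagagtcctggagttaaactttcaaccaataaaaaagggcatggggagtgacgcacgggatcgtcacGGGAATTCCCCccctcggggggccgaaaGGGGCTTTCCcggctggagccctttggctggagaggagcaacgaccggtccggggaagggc

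The Nfkbia match lay 29 bases before the start. Tnfaip3 held matches 125 and 12 bases before its start. In Rel the capital run is a pair of overlapping matches that begin 92 and 91 bases before the start. Nfkb2 held an overlapping pair at 39 and 38 bases and a further match at 11 bases before the start. Its other 2 windows also held matches, and since these windows overlap, they share a site. The windows of Rela, Traf1, Birc3 and Tnfaip2, and the second window of Tnfaip3, held none of these letters.

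The first comparison asks which cell types carried the pathway's RNA. All 10 genes were highest in a leukocyte class with IgAN and Control summed: Rel, Rela, Relb and Nfkb2 in B or plasma cell-like cells, Nfkb1 in macrophage or dendritic-like cells, Tnfaip3 and Traf1 in T or NK cell-like cells, and Nfkbia, Birc3 and Tnfaip2 in the 20 neutrophil-like cells. The share of all measured genes that are highest in a leukocyte class was not counted, so this count has no background to be set against. The lead over the highest class that is not a leukocyte class differed widely between the genes. It was widest for Rel and Tnfaip3, and other leukocyte classes lay closer. Rel stood at 683 CPM against 25.3 CPM in parietal epithelial-like cells and Tnfaip3 at 1455 CPM against 72.1 CPM in the same class, while Rela stood at 246 CPM against 233 CPM in endothelial-like cells. Without Control plate 321, Rela and Relb were highest in endothelial-like cells. Neutrophil-like cells numbered 8 in IgAN and 12 in Control, and no plate held 10 of them, so their levels have no plate spread. Below them, Tnfaip2 was nearly level in macrophage or dendritic-like cells, at 180.5 CPM, and parietal epithelial-like cells, at 178.2 CPM.

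**Figure D1:**
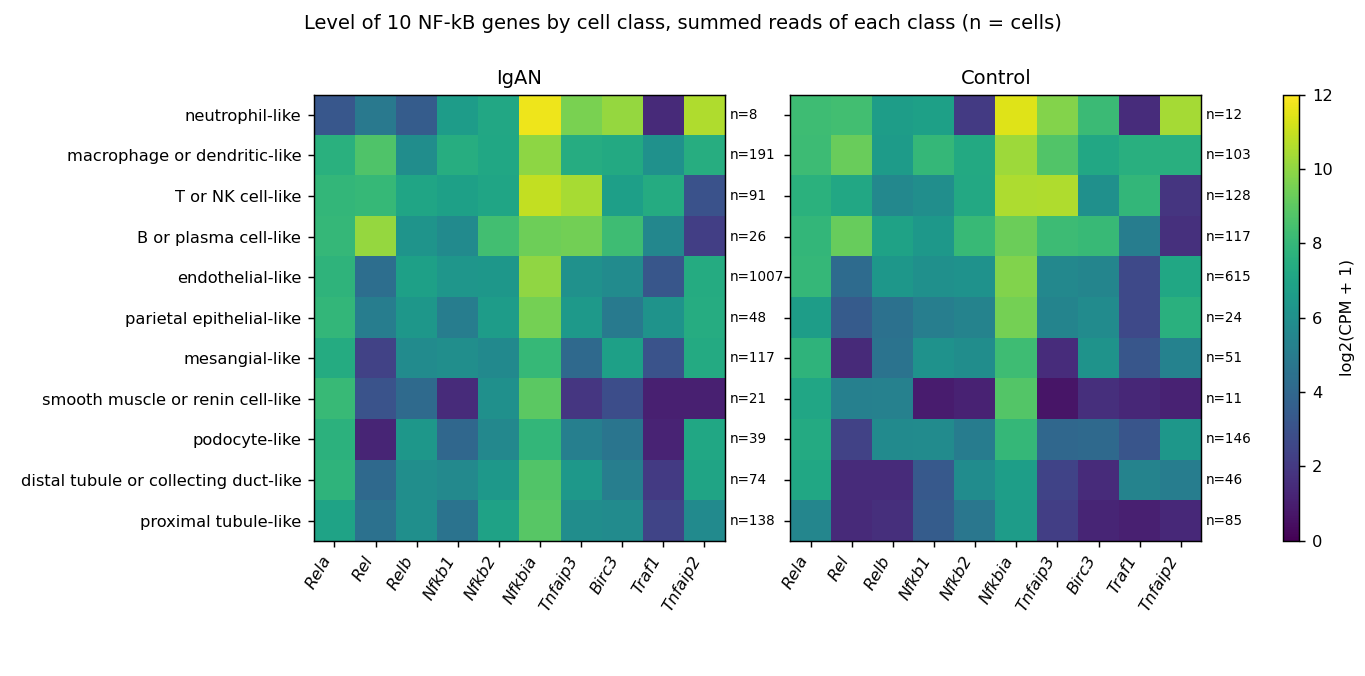
Colour gives log2(CPM + 1) of the summed reads of each cell class, with IgAN on the left and Control on the right, genes along the bottom and the number of cells beside each row. Nfkbia is bright in every class, Rel and Tnfaip3 are bright in the leukocyte rows at the top, and Tnfaip2 is dark in the T or NK cell-like and B or plasma cell-like rows.

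Among the subunits, Rel (chr11:23736847-23770970), which encodes the c-Rel subunit of lymphoid and myeloid cells, was the most cell-type bound. In B or plasma cell-like cells it stood at 1103 CPM in IgAN and 588 CPM in Control, and at 419 and 608 CPM in macrophage or dendritic-like cells of IgAN and Control. In endothelial-like cells it stood at 19.2 CPM in IgAN and 17.3 CPM in Control, and in mesangial-like cells at 4.13 CPM in IgAN and 1.68 CPM in Control. The 4 Control plates of B or plasma cell-like cells held 1193, 517, 583 and 320 CPM, far above every endothelial-like plate, of which the highest reached 37.6 CPM. Rela (chr19:5637483-5648130), which encodes the p65 subunit, was spread evenly. Over both groups it ran from 246 CPM in B or plasma cell-like cells and 233 CPM in endothelial-like cells to 97.1 CPM in proximal tubule-like cells. Wherever neighbours in this order both had plate ranges, the ranges overlapped.

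Relb (chr7:19606217-19629438), the partner of the non-canonical arm, had a different order below the first classes and a wider span, with 111 CPM in B or plasma cell-like, 100.0 CPM in endothelial-like and 84.1 CPM in T or NK cell-like cells of both groups together, down to 23.8 CPM in smooth muscle or renin cell-like cells. Nfkb1 (chr3:135584655-135691547), which encodes p105 and p50, was highest in macrophage or dendritic-like cells, with 177 CPM in IgAN and 251 CPM in Control, but the plates there ran from 32.5 to 395 CPM. Nfkb2 (chr19:46304320-46312385) led in B or plasma cell-like cells, with 334 CPM in IgAN and 274 CPM in Control, against 80.5 CPM in IgAN and 68.3 CPM in Control endothelial-like cells. Its 4 Control plates of B or plasma cell-like cells, at 183 to 363 CPM, all lay above the 10 endothelial-like plates, at 37.9 to 116 CPM.

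Nfkbia (chr12:55489410-55492647), which encodes the inhibitor IkB alpha, was found in nearly every cell. It had a read in 1002 of 1007 IgAN and 612 of 615 Control endothelial-like cells. Its level ran over both groups from 2990 CPM in neutrophil-like and 1685 CPM in T or NK cell-like cells to 278 CPM in mesangial-like and 249 CPM in podocyte-like cells. All 10 endothelial-like plates, at 804 to 1274 CPM, lay above all 9 mesangial-like plates, at 72.3 to 513 CPM, and all 6 podocyte-like plates, at 155 to 342 CPM. Levels of different genes can be set side by side only per kb of exon. On that scale Nfkbia stood at 647 CPM per kb in IgAN and 526 in Control endothelial-like cells, followed by Rela at 71.8 in IgAN and 82.1 in Control, and then Tnfaip2 at 33.8 in IgAN and 28.2 in Control.

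Tnfaip3 (chr10:19000910-19015657), which encodes A20, an ubiquitin-editing brake on IKK activation, was far higher in T or NK cell-like than in endothelial-like cells. T or NK cell-like cells held 1395 CPM in IgAN and 1501 CPM in Control, with plates from 825 to 1992 CPM. Endothelial-like cells held 65.4 CPM in IgAN and 48.1 CPM in Control, with plates from 33.5 to 76.2 CPM. Macrophage or dendritic-like plates ran from 47.0 to 739 CPM and overlapped the endothelial-like ones. Within the T or NK cell-like class, the cluster led by Gzma and Ncr1 stood at 1519 CPM in IgAN and 2060 CPM in Control, and the cluster led by Cd3e and Tcf7 at 1218 CPM in IgAN and 1198 CPM in Control. Nfkbia differed more between the same clusters, with 2354 and 2366 CPM in the first and 1341 and 1022 CPM in the second, IgAN before Control in each.

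Traf1 (chr2:34941750-34961772), an adaptor of TNF receptors, was largely a T or NK cell-like and macrophage or dendritic-like transcript. T or NK cell-like cells held 165 CPM in IgAN and 247 CPM in Control, against 8.15 CPM in IgAN and 5.35 CPM in Control endothelial-like cells. Birc3 (chr9:7848699-7873186), which encodes the ubiquitin ligase cIAP2, reached 311 CPM in IgAN and 267 CPM in Control among B or plasma cell-like cells. Of the 3 main glomerular classes, mesangial-like cells held the most Birc3, with 111 CPM in IgAN and 69.7 CPM in Control, though their plates ran from 2.68 to 167 CPM and overlapped those of endothelial-like cells. Tnfaip2 (chr12:111442469-111455018), a TNF-inducible gene whose product is linked to membrane protrusions, was scarce in lymphocytes. It stood at 7.04 CPM in IgAN and 2.60 CPM in Control T or NK cell-like cells and at 3.65 and 2.19 CPM in B or plasma cell-like cells of IgAN and Control. Neutrophil-like cells held 1525 CPM in IgAN and 1331 CPM in Control, and endothelial-like cells 168 and 141 CPM.

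Across 64 sums of a class on a plate from 9 classes, the members moved to different degrees with each other and with other genes. These are descriptions over sums that share plates and depth. The closest pair was Nfkbia with Tnfaip3 (Pearson r = 0.816), followed by Rel with Tnfaip3 (r = 0.795), and the least alike was Tnfaip2 with Traf1 (r = -0.226). Among 12913 other genes, the most alike to Rel were Adcy7 (r = 0.900), Trpv2 and Rasgef1b. The most alike to Tnfaip3 were Irf8 (r = 0.877), Nfkbid and Pim1, and to Nfkbia were Irf1 (r = 0.836), Prex1 and H2-D1. Tnfaip2 was most like Ifitm2 (r = 0.854), Rnd3 and Rin2, and Traf1 was most like Pik3r5 (r = 0.838), Rgs1 and Ms4a6b. Birc3 followed Cfl1 (r = 0.774), Rhog and Btg1. Neighbours of the other subunits were looser: Nfkb1 with Poldip3 (r = 0.720), Slc44a2 and Klf13, Rela with Cdc42se2 (r = 0.684), Slc50a1 and Nop56, Relb with Haus2 (r = 0.673), Rhoa and Crip1, and Nfkb2 with Mob1a (r = 0.646), Bcl3 and Lrmp.

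Cell by cell, Nfkbia was found throughout the endothelial-like class. Its median per-cell level was 941 CPM in IgAN and 715 CPM in Control. Relb had a median of 4.41 CPM in IgAN and 2.09 CPM in Control, while its 90th percentile reached 398 CPM in IgAN and 338 CPM in Control. Tnfaip3 likewise had a median of 1.96 CPM in IgAN and 3.33 CPM in Control, and a highest cell of 5127 CPM in IgAN and 1376 CPM in Control. Most Relb and Tnfaip3 reads therefore came from a minority of cells. With every cell thinned to 50000 reads, a median of 3 of the 10 genes had a read in an endothelial-like cell of either group, against 6 in IgAN and 5 in Control before thinning. Rank correlations between pairs of the genes over endothelial-like cells were weak, from -0.033 to 0.169 in IgAN and from -0.0265 to 0.173 in Control.

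The second comparison set IgAN against Control within a class. Genes counted as measured from 10 CPM and a read in 10% of cells in either group upwards. The size rule asked that the log2 difference, IgAN minus Control with 1 CPM added, be at least 1 in either direction and that no plate of one group reach into the range of the other, over plates with at least 10 cells of the class. In endothelial-like cells 0 of the 9 measured members met the rule, with Traf1 too low to be measured. Among all 9688 measured genes, 0.764% met it upwards and 0.723% downwards. The differences were small and leaned one way: 8 of 9 members were positive, with a median log2 of 0.30, against 51.3% of all measured genes and a median of 0.01.

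**Figure D2:**
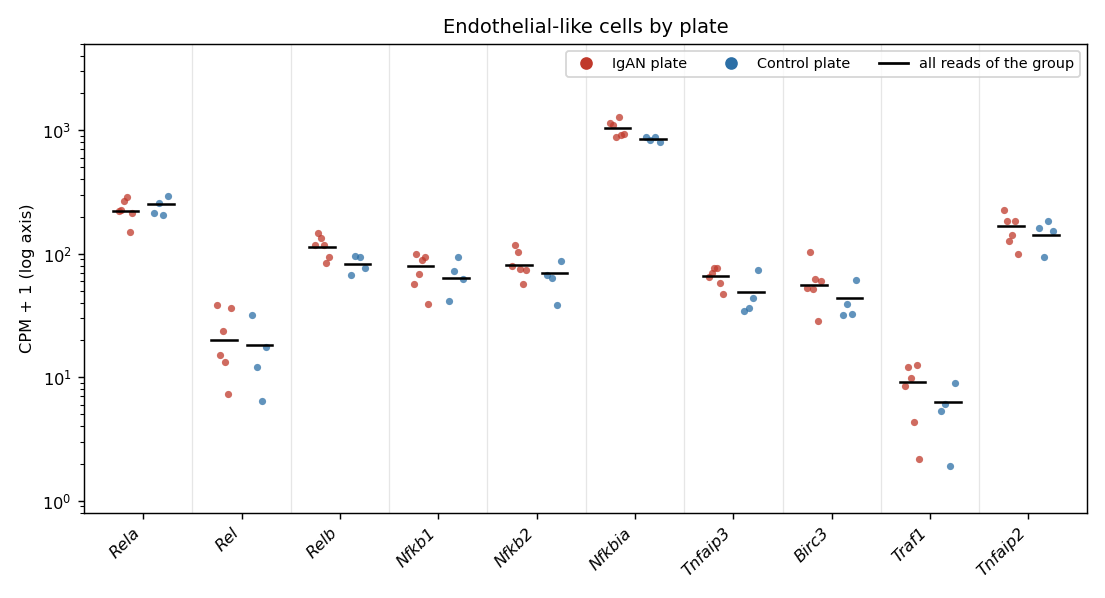
CPM + 1 on a log axis for the 10 genes in endothelial-like cells, with 6 IgAN plates in red to the left of 4 Control plates in blue and a black line for all reads of each group. The plates of both groups overlap for every gene, and Nfkbia, at 1042 CPM in IgAN and 846 CPM in Control, has the highest levels.

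Nfkbia held 1042 CPM in IgAN, with plates from 875 through a median of 1021 to 1274 CPM. The 4 Control plates held 887, 841, 885 and 804 CPM, and the Control sum 846 CPM. Only the lowest IgAN plate, 316, fell inside the Control range, and the log2 difference was 0.30. Relb held 112 CPM in IgAN, with plates of 83.1, 116 and 146 CPM as lowest, median and highest, and 81.2 CPM in Control, with plates of 66.5, 94.6, 92.7 and 76.3 CPM. IgAN plates 322 and 325 lay within the Control range, and the log2 difference was 0.46. Tnfaip3 held 65.4 CPM in IgAN, with plates from 46.4 to 76.2 CPM, and 48.1 CPM in Control, where 3 plates stood at 33.5, 35.7 and 43.1 CPM and the last at 73.4 CPM. That single Control plate closed the gap between the groups. With cells named by a marker gate instead of clusters, the log2 difference of Tnfaip3, 0.43 here, was -0.15. Rela ran the other way, with 221 CPM in IgAN and 252 CPM in Control, a log2 difference of -0.19.

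The remaining measured subunits stayed within the plate spread: Nfkb1 at 78.4 CPM in IgAN and 63.1 CPM in Control, Nfkb2 at 80.5 and 68.3 CPM, and Rel at 19.2 and 17.3 CPM. So did Birc3, at 54.7 CPM in IgAN and 42.7 CPM in Control, and Tnfaip2, at 168 and 141 CPM. Different clusters held the endothelial-like cells of each group. Control cells lay mainly in the cluster led by Fgf1, numbered 0, with 44 IgAN and 418 Control cells, and IgAN cells in clusters 1, with 311 IgAN and 62 Control cells, 2, with 298 and 16, and 3, with 242 and 6. Cluster 3 was led by Cxcl10, and cluster 4, led by Fbln5, held 107 IgAN and 106 Control cells. A further 5 IgAN and 7 Control cells formed the last cluster.

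**Figure D3:**
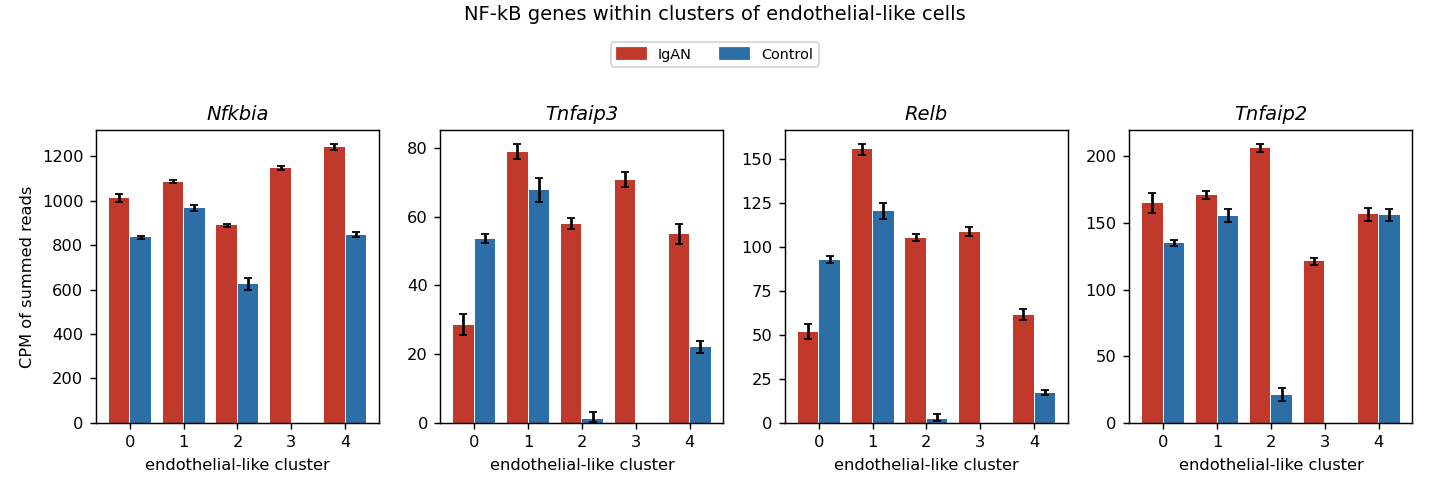
CPM of the summed reads of Nfkbia, Tnfaip3, Relb and Tnfaip2 in endothelial-like clusters 0 to 4, IgAN in red to the left of Control in blue, with exact 95% Poisson intervals of the reads. Nfkbia is higher in IgAN in clusters 0, 1, 2 and 4, and Relb and Tnfaip3 are lower in IgAN in cluster 0 and higher in the others; the 6 Control cells of cluster 3 are not drawn.

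Nfkbia was higher in IgAN within each cluster that held at least 10 cells of both groups. It stood at 1011 CPM in IgAN and 835 CPM in Control in cluster 0, at 1085 and 967 CPM in cluster 1, at 889 and 627 CPM in cluster 2, and at 1240 and 847 CPM in cluster 4. Relb did not share this pattern. It was 51.7 CPM in IgAN and 92.7 CPM in Control in cluster 0, yet 155 and 120 CPM in cluster 1 and 61.3 and 17.0 CPM in cluster 4. Tnfaip3 stood at 28.4 CPM in IgAN and 53.6 CPM in Control in cluster 0, and at 54.9 and 22.2 CPM in cluster 4. Of the 16 Control cells of cluster 2, at least 10 came from a single plate, and together they held 2.42 CPM of Relb and 1.21 CPM of Tnfaip3, against 105 and 57.9 CPM in the 298 IgAN cells. In cluster 3, where 242 IgAN cells lay, Nfkbia stood at 1148 CPM, Relb at 108 CPM and Tnfaip3 at 70.8 CPM.

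The other genes of the pathway in endothelial-like cells gave few calls. Of 25 other target genes, 17 were measured, 14 were positive and the median log2 was 0.86. Icam1 and Cxcl16 met the size rule. Icam1, an adhesion molecule for leukocytes, stood at 349 CPM in IgAN, with plates from 281 to 474 CPM, and at 146 CPM in Control, with plates from 105 to 196 CPM. Cxcl16, a membrane-bound chemokine, stood at 76.6 CPM in IgAN and 23.3 CPM in Control. The most abundant targets were Ier3, at 528 CPM in IgAN and 634 CPM in Control, Cx3cl1, at 711 and 391 CPM, and Irf1, at 534 and 454 CPM, and the plates of all 3 overlapped. None of the 23 measured kinase and ubiquitin genes, 10 receptors, 9 other negative regulators, 6 other IkB family genes and 2 ligands met the rule. The receptor Tnfrsf1a stood at 444 CPM in IgAN and 618 CPM in Control, with all IgAN plates, at 381 to 462 CPM, below all Control plates, at 594 to 658 CPM, for a log2 difference of -0.48. Plates lay apart in that direction for 2.2% of all measured genes and upwards for 1.49%. Among the same cells, 16 measured immediate early genes, which dissociation also raises, had a median log2 of 0.00, with 0 calls. Plate by plate, the median of that list ran from -2.05 to 0.37 in IgAN and from -0.42 to 0.17 in Control. The part of these genes in the members' levels was not tested.

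In mesangial-like cells Tnfaip2 and Tnfaip3 had the widest differences, and the plates of every member overlapped. Of the 8 measured members 0 met the size rule, against 1.29% of all 10210 measured genes upwards and 1.48% downwards, and 4 of 8 were positive with a median log2 of 0.24, where 51.1% of all measured genes were positive and their median was 0.02. The members' median turned to -0.15 without Control plate 314. Tnfaip2 held 160 CPM in IgAN, with plates of 20.1, 119 and 454 CPM as lowest, median and highest, against 38.8 CPM in Control, with plates of 31.4, 33.1 and 61.0 CPM. All IgAN plates but 322 lay above the Control plates, and the log2 difference was 2.02. Tnfaip3 held 15.9 CPM in IgAN, with plates of 1.93, 10.3 and 49.5 CPM, against 1.91 CPM in Control, with plates of 1.19, 0.466 and 3.96 CPM. Here plate 316 alone overlapped the Control range, and the log2 difference was 2.54.

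**Figure D4:**
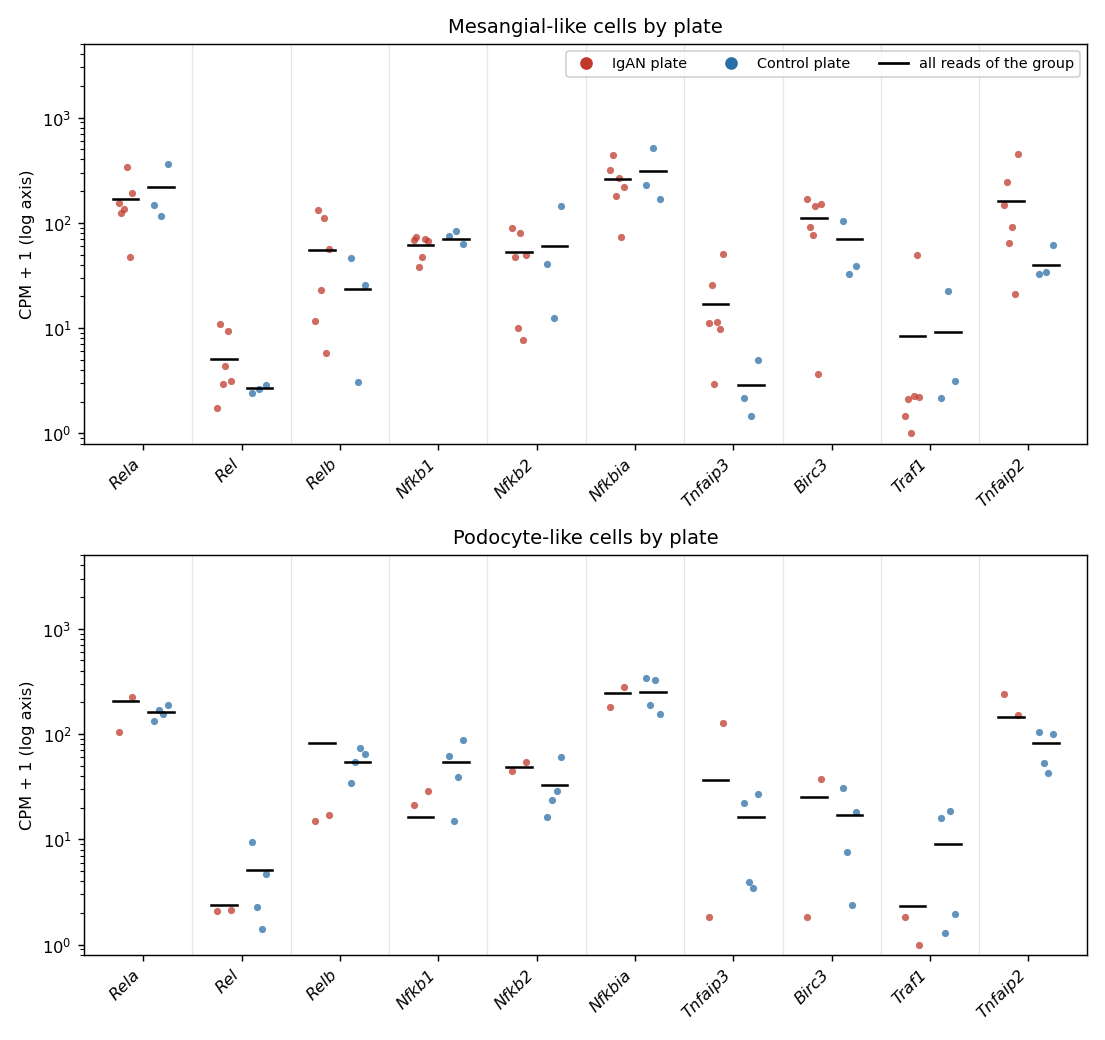
CPM + 1 on a log axis for the 10 genes in mesangial-like cells (top, 6 IgAN and 3 Control plates) and podocyte-like cells (bottom, 2 IgAN and 4 Control plates), IgAN in red to the left of Control in blue, with a black line for all reads of each group. In mesangial-like cells Tnfaip3 and Tnfaip2 lean towards IgAN with 1 overlapping plate each, and in podocyte-like cells the black IgAN line of Relb lies above both of its plates.

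These mesangial-like sums rest on few cells: 1 IgAN cell gave 34.8% of the Tnfaip3 reads of its group, and 10 cells gave 80.7%. For Tnfaip2 the 10 highest IgAN cells gave 54.5% of the reads, and with cells thinned to 50000 reads 58.1% of IgAN and 23.5% of Control cells had a Tnfaip2 read (73.5% and 45.1% before thinning). T or NK cell-like cells, where Tnfaip2 was scarce, gave thinned shares of 24.2% in IgAN and 11.7% in Control, at median depths of 205292 and 210992 reads against 207662 and 220673 reads in mesangial-like cells of IgAN and Control. Relb held 54.7 CPM in IgAN and 22.7 CPM in Control (log2 1.23), and Birc3 111 and 69.7 CPM (log2 0.66), both with overlapping plates. Nfkbia, at 261 CPM in IgAN and 312 CPM in Control, Rela, at 167 and 219 CPM, Nfkb1, at 60.0 and 68.7 CPM, and Nfkb2, at 51.6 and 58.7 CPM, all stood slightly lower in IgAN. With a plate left out, the log2 difference ran from -0.50 to 0.29 for Nfkbia (highest without Control plate 317), from -0.74 to 0.06 for Rela and from -0.65 to 1.06 for Nfkb2 (both highest without Control plate 326), so the direction of these 3 is not firm. Rel and Traf1 were too low to be measured.

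RNA of other classes differed between these mesangial-like groups. The 10 endothelial markers summed to 5462 CPM in IgAN, with plates from 5021 to 6198 CPM, and to 4647 CPM in Control, with plates from 4377 to 5115 CPM. The 7 parietal epithelial markers summed to 1690 CPM in IgAN and 526 CPM in Control, and their part in the Tnfaip2 level was not tested. Of the other pathway genes, the targets Cxcl10 and Ptgs2 and the receptor Tlr3 met the size rule upwards. Ptgs2, the inducible cyclooxygenase, stood at 136 CPM in IgAN and 0.0763 CPM in Control, and its IgAN plates ran from 3.48 to 323 CPM. Cxcl10 stood at 26.4 CPM in IgAN and 0.305 CPM in Control, and Tlr3 at 23.0 and 0.153 CPM. Rbck1, a subunit of the linear ubiquitin ligase LUBAC, met it downwards, at 112 CPM in IgAN and 256 CPM in Control. Of the other target genes, 18 were measured, 15 were positive and the median log2 was 0.81.

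Podocyte-like cells were thinly covered in IgAN, with 39 cells and only plates 313 and 316 at 10 cells or more. Of the 8 measured members 0 met the size rule, where 3.73% of all 9547 measured genes met it upwards and 6.35% downwards. The members were positive in 6 of 8 cases, against 46.3% of all measured genes. The plates of Tnfaip2 lay apart, as they did upwards for 9.61% of all measured genes. It held 237 and 152 CPM on the IgAN plates and 143 CPM over all IgAN cells. In Control it held 103, 51.8, 41.3 and 100.2 CPM by plate and 80.4 CPM over all cells, for a log2 difference of 0.82. IgAN plates with under 10 cells went both ways, at 1.23, 18.4, 10.1 and 599 CPM, and without plate 313 the log2 difference was 0.25. Relb could be read either way. The IgAN plates held 13.8 and 16.0 CPM, below the 4 Control plates at 33.3, 53.0, 73.1 and 63.6 CPM, a position that 15.1% of all measured genes shared. Yet the IgAN sum, at 80.5 CPM, exceeded the Control sum of 53.2 CPM, because 6 cells of plate 318 stood at 506 CPM, and 10 cells held 98.6% of the IgAN reads.

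Nfkbia was close in both groups of podocyte-like cells, at 243 CPM in IgAN and 250 CPM in Control, with IgAN plates of 180 and 280 CPM inside the Control range of 155 to 342 CPM. Rela, at 206 CPM in IgAN and 161 CPM in Control, also overlapped by plate. Nfkb1 stood at 15.3 CPM in IgAN and 53.8 CPM in Control (log2 -1.75), but the Control plates ran from 14.0 to 86.9 CPM around the IgAN plates of 20.2 and 27.9 CPM. Nfkb2, at 47.8 CPM in IgAN and 32.0 CPM in Control, Birc3, at 24.1 and 16.2 CPM, and Tnfaip3, at 35.4 and 15.2 CPM, overlapped as well. Rel and Traf1 were too low to be measured. Of the other IkB genes, Nfkbie, which encodes IkB epsilon, met the rule, with 170 CPM in IgAN and 79.7 CPM in Control.

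Further calls in podocyte-like cells went in both directions. Gadd45b, at 157 CPM in IgAN and 37.8 CPM in Control, Icam1, at 11.3 and 2.09 CPM, Tlr3, at 14.9 and 2.25 CPM, and the LUBAC subunit Rnf31, at 66.5 and 18.7 CPM, met the rule upwards. The kinase gene Tbk1, at 13.4 CPM in IgAN and 54.6 CPM in Control, Tnip2, at 5.68 and 23.1 CPM, Tlr7, at 1.30 and 23.2 CPM, and Cx3cl1, at 16.2 and 39.0 CPM, met it downwards. Immediate early genes, which dissociation is among the things to raise, differed in the same cells: 9 of 15 measured met the rule downwards and 1 upwards, with a median log2 of -2.19. The cause of this difference and its part in the members' levels were not tested. Fos stood at 326 CPM in IgAN and 1088 CPM in Control, while Nr4a1 stood at 2121 and 852 CPM.

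Of the 6 classes compared, proximal tubule-like cells had the largest median difference of the set. In 138 IgAN and 85 Control cells, 3 of the 9 measured members met the size rule upwards, where 6.57% of all 10366 measured genes did so and 2.18% did so downwards. All 9 were positive, with a median log2 of 3.04 against 62.1% positive and a median of 0.32 among all measured genes. Relb held 62.7 CPM in IgAN, with plates of 91.6, 30.9, 98.9 and 36.2 CPM, against 2.08 CPM in Control, with plates of 0.257, 2.23 and 2.77 CPM. Birc3 held 54.9 CPM in IgAN, with plates of 49.3, 10.2, 105 and 71.9 CPM, against 1.33 CPM in Control, with plates of 0.514, 1.54 and 1.55 CPM. Tnfaip2 held 52.7 CPM in IgAN and 1.60 CPM in Control, and its lowest IgAN plate, at 2.21 CPM, lay just above the highest Control plate, at 2.06 CPM. The log2 differences were 4.37, 4.58 and 4.37 in that order.

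The members that missed the rule did so through a single overlapping plate or more. Nfkbia held 470 CPM in IgAN and 98.4 CPM in Control, with IgAN plate 316 at 135 CPM and Control plate 314 at 149 CPM. Tnfaip3 held 57.1 CPM in IgAN and 3.63 CPM in Control, Nfkb2 120 and 25.9 CPM, Rela 125 and 45.0 CPM, Rel 21.3 and 1.71 CPM, and Nfkb1 23.0 and 10.4 CPM. Traf1 was too low to be measured. Endothelial RNA moved with these differences: the 10 endothelial markers summed to 4546 CPM in IgAN, with plates from 227 to 8203 CPM, and to 202 CPM in Control, with plates from 144 to 299 CPM. Proximal tubule markers summed to 8837 CPM in IgAN and 16880 CPM in Control. All 15 measured immediate early genes were positive too, with a median log2 of 3.00.

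The members were therefore also summed over cells with under 500 CPM of endothelial markers, a limit chosen after the data were seen. It left 61 IgAN and 75 Control cells, whose endothelial markers summed to 270 CPM in IgAN and 167 CPM in Control, and the median log2 of the 7 members still measured was 1.83, against 0.11 for all 8923 measured genes. Of 14 measured immediate early genes 6 were positive there, with a median of -0.33. Their part in the members' levels, and that of endothelial RNA, was not tested. Relb stood at 54.6 CPM (95% Poisson interval 51.0 to 58.4) in IgAN and 1.93 CPM (1.34 to 2.70) in Control. Birc3 stood at 36.5 CPM in IgAN and 1.20 CPM in Control, but 1 cell held 50.3% of the IgAN reads, and the IgAN plates held 10.2 and 13.0 CPM against at most 1.47 CPM on the Control plates. Nfkb2 stood at 100.0 CPM in IgAN and 27.5 CPM in Control, where 1 cell held 67.9% of the reads, and its plates overlapped. Relb and Birc3 still met the rule, with only 2 IgAN plates of at least 10 such cells, as did 8.25% of all measured genes upwards and 4.11% downwards. Tnfaip2 did not: it stood at 2.73 CPM (1.97 to 3.68) in IgAN and 1.31 CPM (0.829 to 1.96) in Control, against 94.6 CPM in the 77 IgAN cells above the limit. Nfkbia stood at 164 CPM in IgAN and 102 CPM in Control below the limit, and at 728 CPM in the IgAN cells above it. Nfkb1 stood at 1.78 CPM in IgAN and 10.9 CPM in Control below the limit, and 1 cell held 89.0% of the Control reads.

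**Figure D5:**
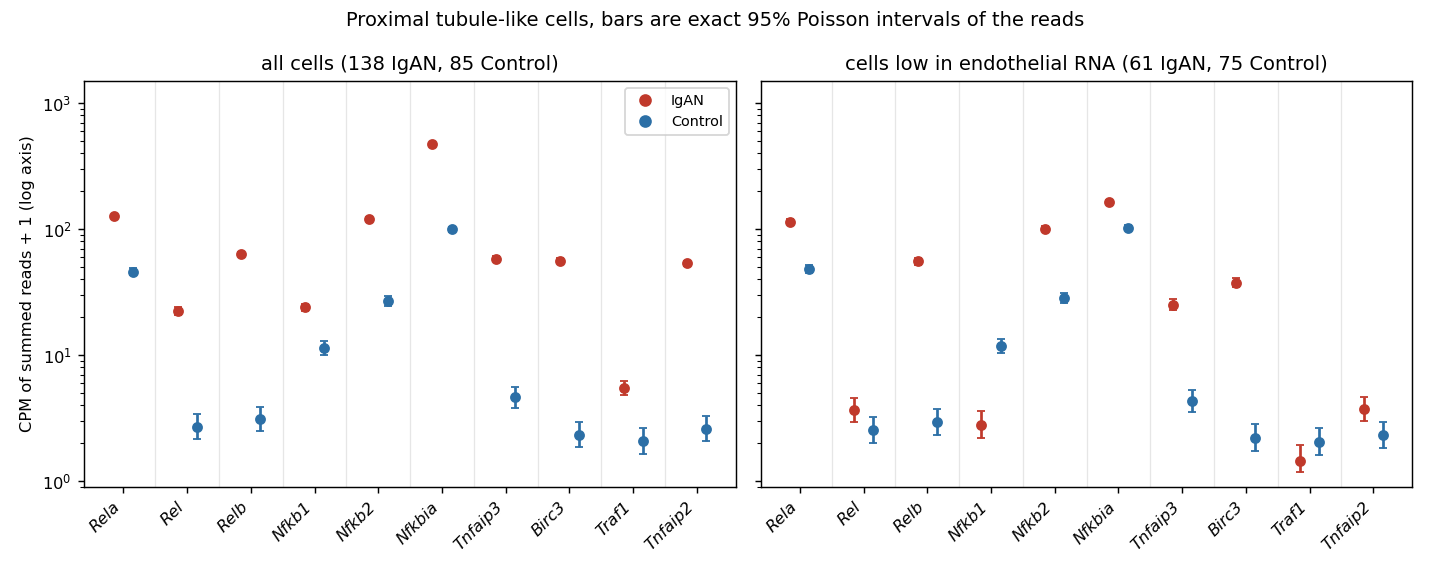
CPM + 1 on a log axis for the 10 genes in proximal tubule-like cells, all cells on the left and cells with under 500 CPM of endothelial markers on the right, IgAN in red to the left of Control in blue, with exact 95% Poisson intervals. Relb and Birc3 stay apart in the right panel, at 54.6 and 36.5 CPM in IgAN against 1.93 and 1.20 CPM in Control, with 1 cell giving 50.3% of the IgAN Birc3 reads, while Tnfaip2 does not.

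In those low-endothelial IgAN cells the reads again came from few cells. Relb was found in 23 of 61 IgAN and 25 of 75 Control cells, and the highest IgAN cell held 32.2% of the reads. With cells thinned to 50000 reads, 14.8% of IgAN and 12.0% of Control cells had a Relb read. The 23 IgAN cells held 861 Relb reads and the 25 Control cells 34, so the gap lay in the reads of these cells. Since a cell with a single read counts in these shares, they do not give the share of cells that express Relb. For Birc3 the thinned shares were 16.4% in IgAN and 6.67% in Control.

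The wider pathway in proximal tubule-like cells showed many calls over all cells, those rich in endothelial RNA included. Of 18 measured other target genes 9 met the size rule upwards and 16 were positive, with a median log2 of 4.03. Icam1 stood at 201 CPM in IgAN and 11.7 CPM in Control, the adhesion molecule Vcam1 at 126 and 0.320 CPM, the chemokine Cxcl10 at 95.8 and 0.213 CPM, and the transcription factor Irf1 at 301 and 6.51 CPM. Of 6 IkB family genes, Nfkbie, at 65.3 CPM in IgAN and 1.60 CPM in Control, and Bcl3, at 57.4 and 0.853 CPM, met it upwards, and Nfkbil1, at 6.64 and 50.0 CPM, downwards. Among 22 kinase and ubiquitin genes, Map3k14, which encodes the kinase NIK of the non-canonical arm, stood at 22.8 CPM in IgAN and 0.213 CPM in Control, and Birc2, which encodes cIAP1, at 51.8 and 1.39 CPM. Tradd and Tank were called in the same direction, as were 4 of 8 measured receptors, namely Tnfrsf1b, Cd40, Tnfrsf12a and Tlr2, and the deubiquitinase gene Cyld. In the cells low in endothelial RNA, 5 of 12 measured target genes met the rule upwards and the median log2 was 1.37. The median log2 of the IkB family genes was 0.41 there and 2.35 over all cells. It was 0.34 and 0.84 for kinase and ubiquitin genes, 0.25 and 1.55 for other negative regulators, and 1.27 and 2.54 for receptors. Of the receptors, 2 met the rule upwards there and 1 downwards. The genes named above are not given singly for these cells.

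Both leukocyte classes that could be compared gave no call among the members over all their cells. In T or NK cell-like cells 0 of 9 measured members met the size rule, where 0.447% of all 9387 measured genes met it upwards and 1.29% downwards. Of the 9, 6 were positive, with a median log2 of 0.37, against 52.4% and 0.05 among all measured genes. Nfkbia held 1936 CPM in IgAN, with plates from 1316 to 2412 CPM, and 1494 CPM in Control, with plates of 1601, 1164, 1421 and 1685 CPM. Every IgAN plate but 325 lay above the Control plates, and the log2 difference was 0.37. The groups differed in their mix of clusters. The cluster led by Gzma and Ncr1, higher in Nfkbia, held 59 IgAN and 45 Control cells, and that led by Cd3e and Tcf7 held 32 and 83. Within the first, Nfkbia was nearly level between the groups and Tnfaip3 lower in IgAN, as given above. Within the second, Nfkbia was higher in IgAN. The part of this mix in the members' differences was not tested. Relb held 132 CPM in IgAN and 47.8 CPM in Control, a log2 difference of 1.44, with IgAN plates 318 and 322 at 258 and 201 CPM. The other 4 IgAN plates held 14.4 to 77.3 CPM, and the Control plates 24.1 to 60.3 CPM. Endothelial markers summed to 1114 CPM in IgAN and 516 CPM in Control T or NK cell-like cells. In the 40 IgAN and 82 Control cells under 500 CPM of them, Rel met the rule upwards at 316 CPM in IgAN and 121 CPM in Control, but with 1 IgAN plate, where 8.0% of all measured genes met it upwards and 6.66% downwards. Of the other pathway genes the kinase gene Ikbke met the rule, downwards, at 77.9 CPM in IgAN and 184 CPM in Control.

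In macrophage or dendritic-like cells 0 of 10 members met the rule, where 0.728% of all 9885 measured genes met it upwards and 0.435% downwards. The lean was downwards: 1 of 10 was positive, with a median log2 of -0.52, against 54.0% positive and a median of 0.06 among all measured genes. None of the 16 measured immediate early genes was positive either, with a median of -0.36, and their part in the members' levels was not tested. The class pooled clusters led by Treml4 (115 IgAN and 48 Control cells), Cd209a (52 and 45) and C1qc (24 and 10). As given at the end, Nfkb1 was lower in IgAN in the Treml4 and C1qc clusters and higher in the Cd209a cluster. Rel was lower in the Treml4 and Cd209a clusters and slightly higher in the C1qc cluster. The part of this mix was not tested. Tnfaip3 held 169 CPM in IgAN, with plates of 47.0, 142 and 329 CPM as lowest, median and highest, and 434 CPM in Control, with plates of 244, 283, 672 and 739 CPM. All IgAN plates but 322 lay below the Control plates, and the log2 difference was -1.36. Traf1 held 66.0 CPM in IgAN and 190 CPM in Control, with overlapping plates, and Rela 193 and 296 CPM. Endothelial markers summed to 2269 CPM in IgAN and 1061 CPM in Control macrophage or dendritic-like cells. In the 82 IgAN and 66 Control cells under 500 CPM of them, Tnfaip3 stood at 157 CPM in IgAN and 444 CPM in Control and Relb at 23.9 and 98.2 CPM, and both met the rule downwards, as did 1.37% of all measured genes there, with 2.48% upwards. For Relb below the limit, 1 cell held 38.9% of the IgAN reads and 1 cell 35.6% of the Control reads. Only 3 IgAN plates had at least 10 such cells. In the cells above the limit Relb stood at 88.6 CPM in IgAN and 87.2 CPM in Control. The other pathway genes gave a single call in the whole class: Usp21, a deubiquitinase gene, stood at 123 CPM in IgAN and 26.5 CPM in Control.

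The other classes, which are not among the 3 main glomerular ones, had fewer than 3 plates of at least 10 cells in a group and are given as levels. In distal tubule or collecting duct-like cells Nfkbia stood at 429 CPM in IgAN and 106 CPM in Control, and endothelial markers summed to 5538 CPM in IgAN and 618 CPM in Control. The IgAN plates with at least 10 cells held 628, 127 and 557 CPM of Nfkbia, and the Control plates 166 and 100.3 CPM. Tnfaip3 stood at 83.6 CPM in IgAN and 4.36 CPM in Control, but this rests on IgAN plate 315 at 170 CPM, since plates 318 and 325 held 6.34 and 4.76 CPM against 1.68 and 5.08 CPM on the Control plates. Of the distal tubule or collecting duct-like cells, 24 IgAN and 34 Control cells held under 500 CPM of endothelial markers. In these Nfkbia stood at 136 CPM in IgAN and 103 CPM in Control, and Tnfaip3 at 10.1 and 4.43 CPM. The 50 IgAN cells above the limit held 584 CPM of Nfkbia and 122 CPM of Tnfaip3, and the 12 Control cells 122 and 3.95 CPM. Parietal epithelial-like cells held 709 CPM of Nfkbia in IgAN and 723 CPM in Control, and 172 and 192 CPM of Tnfaip2. In 21 IgAN and 11 Control smooth muscle or renin cell-like cells, Nfkbia stood at 499 CPM in IgAN and 447 CPM in Control, while Tnfaip2 and Traf1 stayed at 1.49 CPM or less.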

How the data were processed

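Smart-seq2 read counts of 3143 single cells were used as deposited by the authors: whole numbers of reads for 46517 gene names, not normalized. Per the submitters' processing notes, reads were handled with featureCounts, Subread 1.4.6-p5, TopHat2 2.1.1 and SAMtools 0.1.18 on GRCm38 (mm10). Not given in the sources used here are the annotation, the strand setting and the handling of duplicates, so reads of overlapping genes cannot be told apart. Groups came from the treatment label, plates from the cell names, and 0 cell names repeated.

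The 10 genes and all lists were chosen with earlier results of these data known. For clustering, cells were scaled to 100000 reads and log transformed over genes found in 5 cells or more. The 2000 most variable, without the 10 genes (4 of which would have entered), gave 30 principal components, 15 neighbours and, at resolution 1, 23 Leiden clusters. Classes were given by the leading markers, from 13 lists; 45 cells in 2 clusters stayed unnamed. Reads were summed per class and group, or per class and plate with at least 10 cells, and scaled to CPM. Intervals are exact at 95% (Poisson for reads) and cover counting error only, since reads here carry no molecular identifier and can be PCR copies. The size rule was also run on simulated counts, with the same plate spread for every gene of a class and with means of plates. The data have spreads that differ by gene and use summed reads, so no conclusion is drawn from that run.

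Named genes were the 10 members, list genes meeting the rule in a main class, some of the 3 most abundant of a list, and the 3 genes most like each member. List genes called in leukocyte or proximal tubule classes were named after their values were seen. Positions are GENCODE vM21 and RefSeq on GRCm38. Exon lengths per gene are GENCODE unions. Alternatives covered clustering, class naming, scaling, thinning, filters, the added CPM, plate minimum and leaving out each plate. Chosen after seeing the data were equal plate weights, cells low in endothelial RNA, and leaving out plates in leukocyte and tubule classes. Software was scanpy 1.11.5, leidenalg 0.10.2, anndata 0.12.19, numpy 2.4.6, scipy 1.17.1, pandas 2.3.3, matplotlib 3.10.9 and scikit-learn 1.9.0 under Python 3.11.15.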

Additional observations from a re-analysis of the deposited data

Results flagged for a closer look

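Among 81 groups of IgAN or Control plates of a class, 2 had a plate that stood apart from the rest of its group by Dixon's criterion, which chance gives in about 1 of 20 groups. Traf1 in IgAN T or NK cell-like cells held 380 CPM on plate 325, against 111 to 178 CPM on the other 5 IgAN plates. Relb in IgAN macrophage or dendritic-like cells held 138 CPM on plate 322, against 32.0 to 69.4 CPM on the others.

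Relb plates lay apart in opposite directions in 2 classes. In proximal tubule-like cells every IgAN plate was above every Control plate, with a log2 difference of 4.37, and in podocyte-like cells the 2 IgAN plates were below the 4 Control plates. The difference between the classes was not tested, and the podocyte-like sum points upwards, with a log2 of 0.59.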

How the results depend on the processing

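No paired analysis was possible because the labels name no animal and every plate holds 1 group. In endothelial-like cells 0 members met the size rule under every alternative run, and the median log2 stayed between 0.16 and 0.39, while Tnfaip3 had a log2 of -0.15 with the marker gate. Fewer plates need to lie apart when 1 is left out, so the rule is then easier to meet. The share of all measured genes that met the rule was kept for cells low in endothelial RNA but not for the other alternatives. Counts of members under those others therefore have no background to be set against. In mesangial-like cells the count was 1 at resolution 2 (Tnfaip3), 2 with cells named by a marker gate (Tnfaip3 and Tnfaip2), and 0 to 1 with a plate left out (median log2 -0.15 to 0.44, negative also with the 50 CPM filter, at -0.18), with Tnfaip3 entering without plate 316 or 326 and Tnfaip2 without 322. In podocyte-like cells it was 1 with the marker gate (Nfkb2) and with the mean of per-cell CPM (Tnfaip2), 2 with median-of-ratios scaling and with equal plate weight (Relb and Tnfaip2 in both), and 0 to 2 with a plate left out. There Relb had a log2 of -1.72 with median-of-ratios scaling, -1.83 with equal plate weight and -2.25 without plate 318, while it was 1.31 with the mean of per-cell CPM. In proximal tubule-like cells, 3 to 7 members met the rule with a plate left out: 7 without 316, 5 without 317 or 321. In cells low in endothelial RNA their median log2 was 1.83. In such cells 1 member (Rel, with 1 IgAN plate) met the rule in T or NK cell-like cells, and 2 (Relb and Tnfaip3, both lower in IgAN) in macrophage or dendritic-like cells, where the count was 0 to 1 with a plate left out, Tnfaip3 entering without 322. Leaving out cells with markers of 2 classes left no plate with enough mesangial-like or podocyte-like cells of a group, so no value could be given. All 10 members were highest in a leukocyte class in the main grouping, and 8 to 10 were with a plate left out, 8 without plate 321 and 9 without 322. The cause of these shifts was not tested. Few podocyte-like, mesangial-like and tubule-like cells per plate, and sums that rest on few cells, limit every difference outside the endothelial-like class.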

Other observations

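The 2 unnamed clusters also held the genes. The cluster led by Aqp2, of 25 IgAN cells and 0 Control cells, stood at 828 CPM of Nfkbia, 163 CPM of Birc3 and 1.01 CPM of Traf1. The cluster led by cell cycle genes, with 13 IgAN and 7 Control cells, stood at 665 CPM of Nfkbia and 130 CPM of Nfkb1 in its IgAN cells.

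Among macrophage or dendritic-like clusters, Rel set apart the one led by C1qc. Its 24 IgAN cells held 31.7 CPM of Rel and its 10 Control cells 28.1 CPM. The cluster led by Treml4 and Cd300e held 483 CPM in IgAN and 873 CPM in Control, and the one led by Cd209a held 475 CPM in IgAN and 505 CPM in Control. Nfkb1 was lowest in the C1qc cluster as well, at 9.65 CPM in IgAN and 52.5 CPM in Control. It stood at 147 CPM in IgAN and 367 CPM in Control in the Treml4 cluster and at 292 CPM in IgAN and 196 CPM in Control in the Cd209a cluster.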
